A study of Mus musculus with 10 samples.

Results

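The fibroblast growth factor Fgf3, the FGF receptors Fgfr1, Fgfr2, Fgfr3 and Fgfr4 and the PEA3 transcription factors Etv1, Etv4 and Etv5 were followed in laser-dissected mouse colon tumours. Every probe set annotated to 1 of these 8 genes and to no other was used, which gave 21 probe sets of 45101 on the array. The genes were chosen because Fgf3 and Etv5 had lower signal in KO than in WT tumours, so their KO and WT values are given as a description, with no p-value and no call. Of the 8 genes 7 had a probe set of their own, among 18193 genes with such a probe set. Etv1 had 0 of its own, its 3 probe sets being shared with the pseudogene Gm5454, and no value is given for it.

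KO tumours came from vil-Cre-Bcl9-/-/Bcl9l-/- mice and WT tumours from wildtype mice, all of the 129SvEv/C57BL/6/DBA/2 mixed background. All mice were 6 to 8 weeks old when given dimethylhydrazine at 44 mg/kg, a carcinogen precursor, and then received 2% dextran sulfate sodium, which injures the colon, in drinking water for 7 days. The vil-Cre transgene is driven by the villin promoter, active in intestinal epithelium, and Bcl9 and Bcl9l are co-factors of beta-catenin in Wnt-driven transcription. The 5 KO tumours came from 3 mice (tumours 2 and 6 from mouse 02, tumours 9 and 11 from mouse 04, tumour 7 from mouse 99) and the 5 WT tumours from 2 mice (tumours 1, 3, 12 and 13 from mouse 72, tumour 8 from mouse 82). Per the labels dissected material was pooled by mouse, yet more than 1 array is listed for most mice, and each array was taken as 1 tumour. Tumours of a mouse share an animal, so the number of mice, and not only of arrays, limits every comparison.

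FGF ligands are secreted proteins that bind heparan sulfate and receptor tyrosine kinases on the cell surface. The activated receptor recruits adaptors that switch on the Ras and MAP kinase cascade, and the PEA3 factors are transcription factors whose genes commonly respond to that cascade in the embryo. Sprouty, Spred and Dusp proteins act in the same cascade as feedback inhibitors. Fgf3 was first found as int-2, a locus activated by proviral insertion in mouse mammary tumours.

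The promoter windows of Fgf3 and Etv5 are shown because these genes carried the large KO to WT differences. Both are the 250 bases before the start of the gene in RefSeq (GRCm38.p6), written 5′ to 3′ on the strand of the gene, with capitals marking motif matches. The Fgf3 window lies at chr7:144838362-144838611 on the plus strand and the Etv5 window at chr16:22439571-22439820 on the minus strand.
Fgf3: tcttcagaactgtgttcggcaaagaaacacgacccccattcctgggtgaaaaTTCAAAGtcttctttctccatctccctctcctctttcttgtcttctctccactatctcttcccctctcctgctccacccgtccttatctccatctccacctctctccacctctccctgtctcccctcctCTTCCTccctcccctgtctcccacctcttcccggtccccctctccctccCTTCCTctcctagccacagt
Etv5: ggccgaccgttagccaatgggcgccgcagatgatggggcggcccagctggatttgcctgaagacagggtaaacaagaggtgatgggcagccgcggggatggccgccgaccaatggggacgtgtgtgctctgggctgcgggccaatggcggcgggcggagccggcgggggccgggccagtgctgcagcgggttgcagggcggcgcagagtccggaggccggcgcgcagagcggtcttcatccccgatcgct
The motifs searched on both strands were 3 TCF/LEF motifs, namely CTTTGAT, then CTTTGTT, then CTTTGAA, together with the PEA3 motif AGGAAG, none of which is part of another. The Fgf3 window held CTTTGAA once, on the opposite strand, starting 198 bases before the gene, and AGGAAG on the opposite strand 69 and 20 bases before it. The Etv5 window held 0 matches to either kind of motif, which says only that these letters are not in this window. Etv5 had a second window, not printed, at chr16:22438369-22438618 on the minus strand, which also held 0 matches. Of 32851 mouse promoter windows of the same length, 12% held a TCF/LEF motif (4.46% held CTTTGAA) and 29.5% held AGGAAG. In the other member windows AGGAAG had 1 match each in Fgfr2 (208 bases before the start), Fgfr4 (238) and the first window of Etv1 (8). A match is a description of letters and not a site of binding, and no window was given for Fgfr1 or Etv4.

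All values below are log2 signals made by the authors with RMA, in which a difference of 1 is a factor of 2. Array medians lay between 6.43 and 6.50. The level filter was set at 5.82, which leaves 40 of every 100 probe sets beneath it. Of the 21 probe sets 16 were above it. Probe sets differ in how brightly they hybridise, so levels are compared between tumours and not between probe sets.

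The label of the tissue was checked against epithelial markers, each set only against the level filter. Of 13 colon epithelium markers 12 were above the level filter, Epcam, Krt8, Krt19 and Cdh1 among them, and Slc26a3, a transporter of mature colonocytes, was below it. The 5 probe sets of the targeted genes Bcl9 and Bcl9l did not differ in a way that checks the labels: KO minus WT ranged from −0.14 to 0.32, 4 had the higher mean in KO, and their position with respect to the deletion is unknown. Of 8 lymphocyte markers tested, 6 were called higher in KO tumours (limma, adjusted p under 0.05), beside 4.16% of all genes tested. The summed linear signal of the markers was 5210 to 7010 in KO and 974 to 2210 in WT tumours. The WT means of Cd8a, Cd79a, Cd3g, Cd79b and Cd2 were under the level filter. These markers entered the test only through the KO tumours, so nothing is read from their calls. Jchain, also called, had a mean of 12.08 in KO and 9.37 in WT tumours. For epithelium 0 of 12 tested markers passed (summed signal 61700 to 66700 in KO and 44700 to 74500 in WT), and for fibroblasts 0 of 8 (8310 to 15400 in KO and 7400 to 16500 in WT). The sums are set mostly by the brightest markers and do not show that the epithelium was alike. Car1 differed by −3.26 (limma, adjusted p = 0.0773). Vil1 differed by 0.69, with all KO tumours above all WT tumours (limma, adjusted p = 0.0716). The part of these differences in the values below was not tested. In bulk tissue, fewer cells of a type and less RNA per cell cannot be told apart.

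Fgf3, the ligand, was low in all 5 KO tumours. Probe set 1441350_at gave 5.29, 5.26, 5.04, 5.37 and 5.39 in KO tumours 2, 6, 7, 9 and 11, against 10.47, 8.11, 8.16, 9.07 and 8.24 in WT tumours 1, 3, 8, 12 and 13. All 5 KO tumours were under the level filter, the WT tumours were above it with WT tumour 1 highest, and the genotypes did not overlap. The means were 5.27 ± 0.14 in KO and 8.81 ± 1.01 in WT (SD, n = 5 tumours each), and KO minus WT was −3.52 ± 0.42 (SE), or 11.5-fold lower in KO.

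Probe set 1441914_x_at of Fgf3 gave 4.43, 4.07, 5.75, 4.91 and 5.02 in the same order of KO tumours, against 9.70, 7.51, 7.57, 8.37 and 7.55 in WT tumours. It ranked the WT tumours much as the first did, with tumours 1 and 12 on top, and again the genotypes did not overlap. KO minus WT was −3.27 ± 0.47 (SE), or 9.65-fold lower in KO. The third probe set, 1422923_at, lay below the level filter in its overall mean and gave 5.32, 5.73, 5.55, 5.40 and 5.70 in KO and 6.26, 5.85, 5.92, 5.79 and 6.02 in WT tumours. Its difference was far smaller, −0.43 ± 0.13 (SE), with all KO tumours still under all WT tumours. The means of the brighter pair in KO, 5.27 and 4.84, were under the level filter, so these probe sets passed it only through the WT tumours and the fold depends on the array's background.

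Etv5, a PEA3 transcription factor, was lower in all 5 KO tumours than in any WT tumour. Among KO mice its mean was highest in mouse 04. Probe set 1428142_at gave 7.02, 6.96, 6.94, 8.09 and 9.73 in KO tumours 2, 6, 7, 9 and 11, against 12.36, 10.78, 11.30, 10.19 and 11.28 in WT tumours 1, 3, 8, 12 and 13. The highest KO tumour, tumour 11, came close to the lowest WT tumour, tumour 12, without overlapping it. The means were 7.75 ± 1.21 in KO and 11.18 ± 0.80 in WT (SD, n = 5 each), and KO minus WT was −3.45 ± 0.59 (SE), or 10.9-fold lower in KO.

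The other Etv5 probe sets also had every KO tumour below every WT tumour. Probe set 1450082_s_at gave 6.60, 6.20, 6.57, 7.13 and 9.04 in KO, against 11.94, 10.24, 10.73, 9.43 and 10.71 in WT tumours, a difference of −3.51 ± 0.59 (SE). Probe set 1420998_at gave 6.00, 5.67, 5.66, 5.75 and 7.03 in KO, against 10.41, 8.62, 8.50, 7.58 and 8.79 in WT tumours, a difference of −2.75 ± 0.49 (SE). KO tumour 11 was the highest KO tumour and WT tumour 12 the lowest WT tumour in 3 of 3 Etv5 probe sets. The other tumour of mouse 04, KO tumour 9, was below KO tumour 2 of mouse 02 in 1420998_at (5.75 and 6.00). By mouse, 1428142_at averaged 6.99, 8.91 and 6.94 in KO mice 02, 04 and 99, against 11.15 and 11.30 in WT mice 72 and 82.

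Etv4, a second PEA3 factor, showed a smaller difference with overlap. Probe set 1423232_at gave 6.85, 6.79, 7.03, 6.54 and 6.53 in KO tumours, against 7.68, 8.24, 6.94, 7.72 and 7.73 in WT tumours. WT tumour 8 lay among the KO tumours, and the other WT tumours were above all of them. KO minus WT was −0.88 ± 0.21 (SE), or 1.85-fold lower in KO, and −0.17 without mouse 72, when WT tumour 8 was the only WT tumour. The dimmer probe set 1443381_at gave 5.34 ± 0.36 in KO and 6.12 ± 0.44 in WT (SD, n = 5 each), again with WT tumour 8 lowest of the WT tumours.

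**Figure D1:**
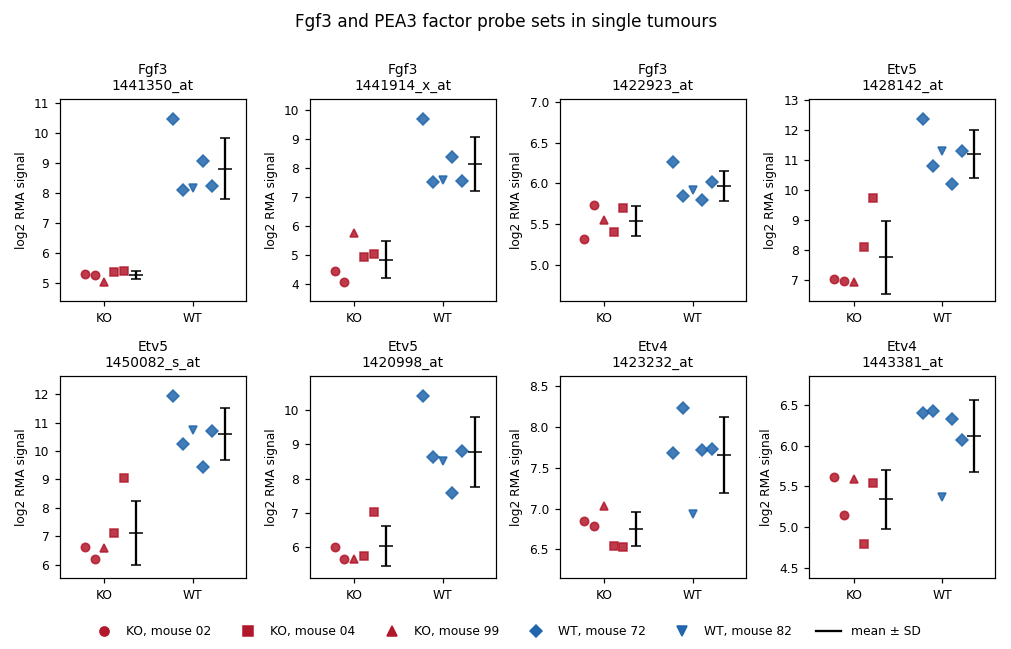
Log2 RMA signal (vertical axis) of each probe set of Fgf3, Etv5 and Etv4 in single KO and WT tumours, with 1 symbol per mouse and the mean ± SD beside the points. KO tumours lie below WT tumours without overlap in all 6 Fgf3 and Etv5 probe sets, whereas WT tumour 8 of mouse 82 (6.94) lies among the KO tumours for Etv4.

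The 4 receptor genes had 13 probe sets, 10 of them above the level filter, and in 0 of 13 were KO and WT tumours free of overlap. Fgfr2, a receptor of epithelial cells in many organs, had 1433489_s_at at 11.17, 11.32, 11.11, 10.82 and 10.42 in KO tumours, against 11.09, 10.18, 11.18, 10.63 and 11.28 in WT tumours. The 2 genotypes covered nearly the same range, with a difference of 0.09 ± 0.24 (SE). Probe set 1420847_a_at of Fgfr2 differed by 0.08 ± 0.30 (SE), and the dim 1443211_at by −0.02 ± 0.27 (SE).

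Fgfr3, which restrains bone growth and is also expressed in intestinal crypts, had higher KO values in its brighter probe set. Probe set 1421841_at gave 7.63, 7.87, 7.67, 7.83 and 7.34 in KO tumours, against 7.19, 7.10, 6.67, 7.39 and 7.12 in WT tumours. Only KO tumour 11 and WT tumour 12 crossed. KO minus WT was 0.59 ± 0.15 (SE), or 1.51-fold higher in KO, while the dimmer 1425796_a_at gave 5.97 ± 0.24 in KO and 5.84 ± 0.22 in WT (SD, n = 5 each).

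Fgfr1, widely expressed in mesenchyme, had 1425911_a_at at 6.65 ± 0.24 in KO and 7.09 ± 0.38 in WT (SD, n = 5 each), a difference of −0.46 ± 0.19 (SE). Its probe sets 1424050_s_at and 1436551_at differed by −0.18 ± 0.24 and −0.20 ± 0.19 (SE). WT tumour 8 was the highest WT tumour in 3 of 3 Fgfr1 probe sets. It was the lowest in 2 of 2 Fgfr3 and 2 of 2 Etv4 probe sets. Among these, Fgfr1 1436551_at and Etv4 1443381_at were below the level filter, and probe sets of a gene are not repeats. Without mouse 72, whose removal leaves WT tumour 8 as the only WT tumour, KO minus WT was −0.93 for Fgfr1 and 1.0 for Fgfr3.

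Fgfr4, known in the liver as the receptor for the bile acid signal Fgf15, varied more within each genotype than between them. Probe set 1418596_at gave 7.66, 7.87, 7.92, 6.91 and 5.61 in KO tumours, against 6.88, 8.35, 6.44, 7.90 and 6.93 in WT tumours. The ranges overlapped, from 5.61 to 7.92 in KO and from 6.44 to 8.35 in WT tumours, and the difference was −0.07 ± 0.51 (SE). The differences of 1427776_a_at, 1427845_at, 1427777_x_at and 1427846_x_at lay between −0.40 and −0.01, each within its SE.

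Among KO mice, the mean of mouse 04 was lowest in 5 of 5 Fgfr4 and 3 of 3 Fgfr2 probe sets. It was highest in 3 of 3 Etv5 probe sets. The counts in this paragraph include Fgfr2 1443211_at, Fgfr4 1427846_x_at and Fgf3 1422923_at, which were below the level filter. Probe sets of a gene were read on the same arrays, so such counts are not repeats. For Fgfr4 1418596_at its mean was 6.26, beside 7.76 for mouse 02 and 7.92 for mouse 99. WT tumours 3 and 12 were the highest WT tumours in 5 of 5 Fgfr4 probe sets, and they also had the highest mean of the colon epithelium markers, 12.09 and 12.02 log2. WT tumour 1, highest of the WT tumours in 6 of 6 Fgf3 and Etv5 probe sets, had the lowest mean of these markers, 10.28. Without WT tumour 1, KO minus WT was −3.12 for Fgf3 and −3.18 for Etv5. Among WT tumours Epcam ran only from 13.47 to 13.72, while Car1 ran from 6.91 to 12.1 and Cdx2 from 8.21 to 11.84. The marker mean is therefore not a measure of the amount of epithelium. Its part in these orders was not tested.

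**Figure D2:**
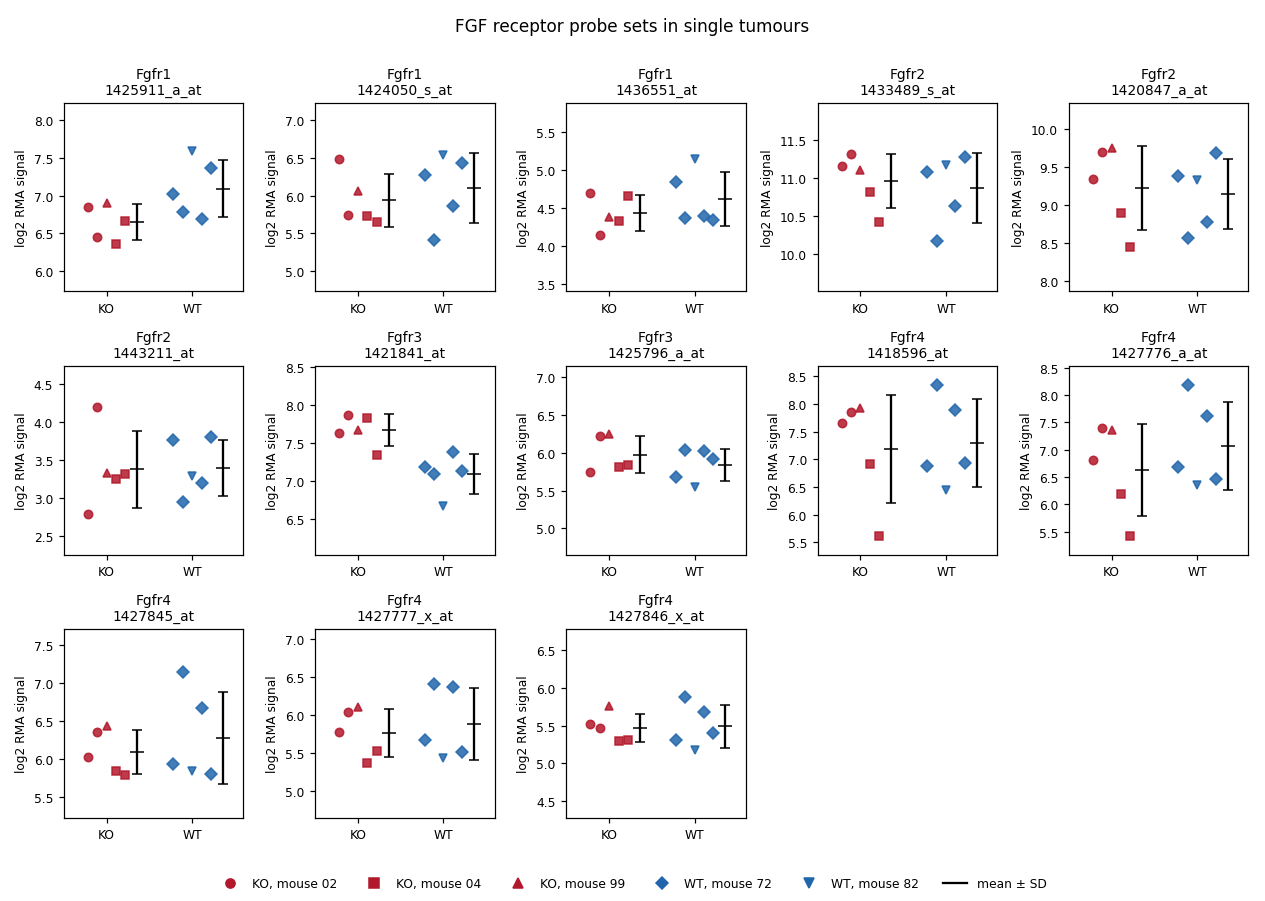
Log2 RMA signal (vertical axis) of each of the 13 FGF receptor probe sets in single KO and WT tumours, with 1 symbol per mouse and the mean ± SD beside the points. KO and WT tumours overlap in every panel, and the KO tumours of mouse 04 (squares) are the lowest KO tumours in the brighter Fgfr2 and Fgfr4 panels.

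Of the 21 member probe sets 6 had every KO tumour below every WT tumour, against 3.39% of all probe sets and 3.79% of the genes tested. The members were chosen on this contrast, so nothing is read from this count.

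The unique sample numbers fall into a lower range, with 1 KO and 4 WT tumours, and an upper range, with 4 KO tumours and 1 WT tumour. Whether these ranges are a batch is not stated. For Fgf3 1441350_at, KO minus WT was −3.36 within the lower range and −5.14 within the upper range. For Etv5 1428142_at it was −3.95 and −4.41, and for Etv4 1423232_at −0.63 and −1.0. Fgfr3 1421841_at had 0.48 within the upper range. Each within-range value rests on a single tumour of 1 genotype.

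The genes beside Fgf3 on the chromosome were compared to see whether the difference extended along it. Genes without a probe set of their own, predicted or clone-named genes and olfactory receptors were left out. In reference order, the nearest genes kept were Cttn, Ppfia1, Fadd and Ano1 before Fgf3, and Fgf4, Fgf15, LTO1 and Ccnd1 after it. Of these 8, the 6 above the level filter were not called in either direction (limma, adjusted p 0.342 to 0.657). Their differences ran from −0.14 ± 0.13 (SE) for Ppfia1, a scaffold of cell adhesions, to 0.44 ± 0.25 for Ano1, a chloride channel. Ccnd1, the cyclin that drives entry into S phase, was at 11.69 ± 0.32 in KO and 11.55 ± 0.07 in WT (SD, n = 5 each). The neighbouring FGF genes Fgf4 and Fgf15 were below the level filter, at 5.19 ± 0.06 in KO and 5.33 ± 0.18 in WT for Fgf4, and at 4.10 ± 0.11 in KO and 4.46 ± 0.09 in WT for Fgf15. Fgf15 had no overlap between genotypes, at levels too low to enter the test.

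**Figure D3:**
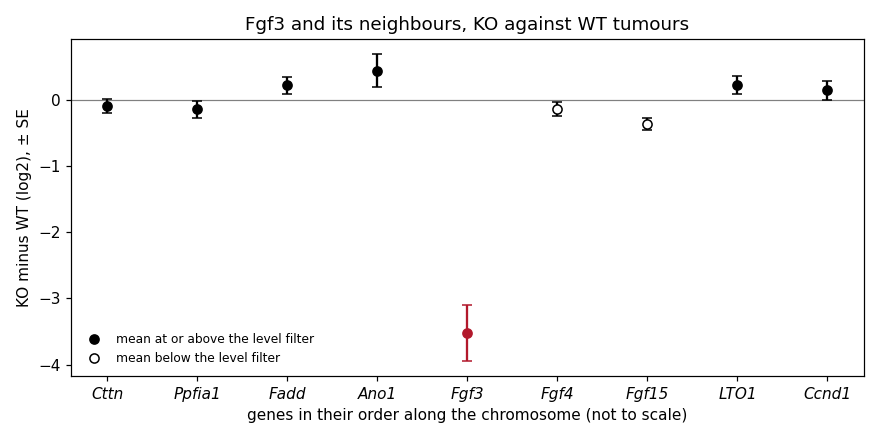
KO minus WT difference in log2 signal (vertical axis, ± SE) of Fgf3 and the nearest 4 genes kept on either side. Genes are in their order along the chromosome and not to scale. Open circles are genes below the level filter. Fgf3 stands at −3.52, while the neighbours lie between −0.36 and 0.44.

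Beyond the members, 113 genes of the FGF pathway and of the ETS family were grouped into 7 lists by function. Of these, 77 were tested, 28 were below the level filter and 8 were not analysed here. In a limma fit over 12250 genes 3 of the 77 were called lower and 1 higher in KO tumours (adjusted p under 0.05), and 73 were not called. Over all genes tested 2.93% were called lower and 4.16% higher (7.09% in all), so the counts of the 77 stand near the background and are no result about the pathway. Of the genes called lower, Fgf20 entered the test only through its WT tumours. The median difference over the 77 was −0.05, beside 0.03 over all genes tested.

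Of 17 other secreted ligands only 5 were above the level filter, so most FGF genes were too dim to test. Fgf20, a ligand of the Fgf9 group, gave 5.60, 5.80, 5.67, 5.86 and 5.77 in KO tumours 2, 6, 7, 9 and 11, against 6.58, 6.44, 7.20, 6.01 and 6.21 in WT tumours 1, 3, 8, 12 and 13. All KO tumours were below all WT tumours, with a difference of −0.77 ± 0.20 (SE; limma, adjusted p = 0.0445). Its KO mean was under the level filter, so a gene like this had to differ to enter the test, and nothing is read from its call. That call held in 11 of 27 alternative settings (limma, adjusted p 0.013 to 0.624). Fgf1, a ligand that binds all FGF receptors, had 8.30 ± 0.29 in KO and 7.63 ± 0.52 in WT and was not called (limma, adjusted p = 0.161). Fgf7 and Fgf9, a mesenchymal and a more broadly made ligand, each had a difference of −0.18 and were not called.

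Among heparan sulfate enzymes, which build and modify the sugar chains that FGFs need for receptor binding, 1 of 11 tested was higher, 1 was lower and 9 were not called. Hs3st1, a sulfotransferase, gave 7.72, 7.66, 7.34, 7.76 and 7.69 in KO tumours, against 5.85, 6.51, 6.21, 6.70 and 6.33 in WT tumours. All KO tumours were above all WT tumours, and the difference was 1.31 ± 0.17 (SE), or 2.48-fold higher in KO (limma, adjusted p = 0.00151). Within the lower number range alone the call was lost (limma, adjusted p = 0.263). Ext1, a polymerase of the chain, had 8.68 ± 0.22 in KO and 9.51 ± 0.45 in WT (SD, n = 5 each) and was lower in KO, with a difference of −0.84 ± 0.22 (SE; limma, adjusted p = 0.0459). The call of Ext1 held in 11 of 28 alternative settings (limma, adjusted p 0.0219 to 0.669). Sulf1, Hs2st1 and Sulf2, which trim or add sulfate groups, differed by −0.64, 0.48 and 0.45 and were not called.

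Of 13 co-receptors and binding proteins tested, 0 were called by limma, although 5 had an unadjusted p under 0.05, and the median difference was −0.23. The share of all genes tested with such an unadjusted p was not counted, so nothing is read from the 5. Gpc1, a heparan sulfate proteoglycan of the cell surface, gave 9.44, 8.04, 8.20, 8.71 and 8.72 in KO tumours, against 10.78, 8.99, 10.37, 9.51 and 10.08 in WT tumours. KO tumour 2 lay above WT tumour 3, and the difference of −1.34 ± 0.38 (SE) did not pass (limma, adjusted p = 0.0609). Gpc1 did pass with no block (limma, adjusted p = 0.0434), means per mouse (0.0352), the number range (0.0315) or the 3′ minus 5′ control difference (0.0251) as a covariate, without KO tumour 2 (0.0329) and without WT tumour 3 (0.0271). Fgfrl1, a receptor-like protein without a kinase domain, differed by −0.80 ± 0.26 (SE; limma, adjusted p = 0.0944), and Fgfbp1, a secreted FGF carrier, by 0.94 ± 0.43 (SE; limma, adjusted p = 0.229). Fgfrl1 passed without WT tumour 12 (difference −0.94; limma, adjusted p = 0.0365). Fgfbp1 passed with the range covariate (1.71; limma, adjusted p = 0.0251) and within the upper range (2.06; limma, adjusted p = 0.00772).

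The adaptors and the core of the MAP kinase cascade differed little between genotypes. Of 14 genes tested 0 were called by limma, 1 had an unadjusted p under 0.05, and the differences ran from −0.28 for Gab1, a docking protein, to 0.12. How many of all genes had such an unadjusted p was not counted. Nras, a Ras GTPase, differed by −0.23 and was not called (limma, adjusted p = 0.215), and Frs3, an FGF receptor adaptor, by −0.15.

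Among feedback inhibitors and output genes of the cascade, 1 of 14 tested was lower and 13 were not called. The median difference was −0.38, and 10 of 14 differences were below 0. So were 11 of 14 for adaptors and core, 10 of 13 for co-receptors and binding proteins and 4 of 5 for secreted ligands. For heparan sulfate enzymes it was 5 of 11 and for other ETS factors 4 of 19. The share of all genes tested below 0 was not counted, so nothing is read from the 10. Spred1, an inhibitor of Ras and Raf signalling, gave 9.32, 8.99, 9.05, 9.19 and 9.22 in KO tumours, against 10.02, 9.74, 9.83, 9.74 and 9.53 in WT tumours. All KO tumours were below all WT tumours, with a difference of −0.62 ± 0.12 (SE), or 1.54-fold lower in KO (limma, adjusted p = 0.0111). The call was lost with means per mouse (limma, adjusted p = 0.0568), without mouse 72 (0.161) and within the lower (0.318) and upper (0.069) number range. Spred2 and Phlda1, chosen after their values were seen, also had no overlap, with differences of −0.49 and −0.61 that did not pass (limma, adjusted p = 0.0541 and 0.0860).

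Spry1 and Spry4, the Sprouty inhibitors, and Dusp4, a phosphatase of MAP kinases, differed by −0.74, −0.79 and −0.73. None of the 3 was called (limma, adjusted p = 0.106, 0.250 and 0.269), and a p that misses the threshold does not show that the genotypes were alike. Spry4 gave 7.15, 5.72, 7.81, 7.67 and 7.56 in KO tumours, against 8.57, 7.97, 7.74, 7.79 and 7.87 in WT tumours. KO tumour 6 was far below the rest and the remaining tumours overlapped. Without KO tumour 6 the difference was −0.43 for Spry4 and −0.44 for Dusp4. Spry4 differed by −0.04 within the lower number range and by −1.54 within the upper range. Spry1 passed with the range covariate (−1.08; limma, adjusted p = 0.0387).

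**Figure D4:**
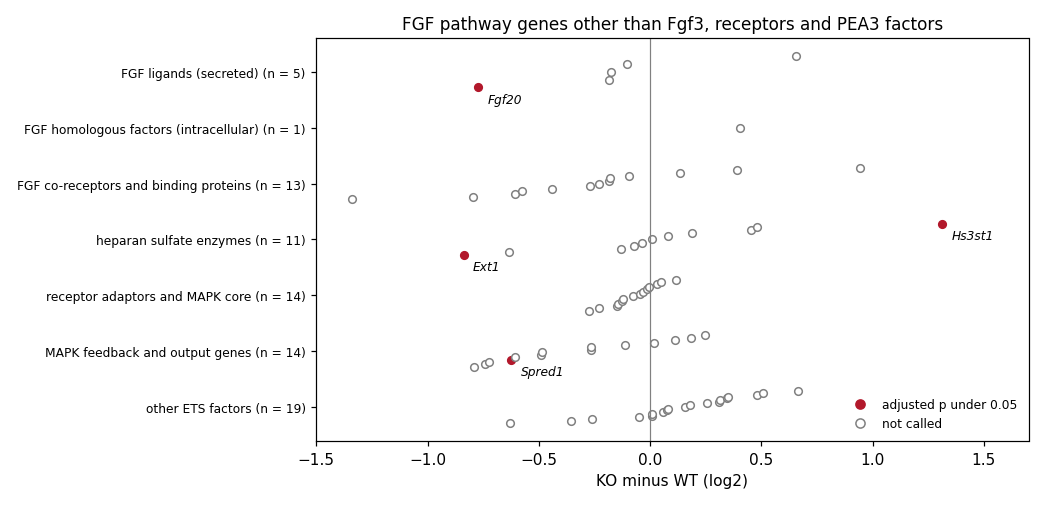
KO minus WT difference in log2 signal (horizontal axis) of each tested gene in 7 lists, with 1 point per gene, spread vertically within a list for legibility. Filled points are called by limma at an adjusted p under 0.05: Fgf20, Ext1 and Spred1 are lower and Hs3st1 is higher in KO, and the other 73 genes are open.

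The profiles of Fgf3 and Etv5 over the 10 tumours were set beside those of all tested genes, after subtracting each gene's own mean and taking the root mean square difference as the measure of likeness. The genes most like Fgf3 were Slc14a1 (0.328 log2), a urea transporter, Cdkn1c (0.339), an inhibitor of cyclin-dependent kinases, Adgrg2 (0.521), an adhesion receptor, Wnt6 (0.559), a Wnt ligand, and Limch1 (0.579), an actin regulator. Those most like Etv5 were Wif1 (0.328), a secreted Wnt inhibitor, Mt4 (0.367), a metallothionein, Prox1 (0.450), a homeobox factor, Slc30a2 (0.463), a zinc transporter, and Tesc (0.535), a calcium-binding protein. Between Fgf3 and Etv5 the measure was 0.893, Etv5 being number 39 among 12249 other genes for Fgf3 and Fgf3 number 32 for Etv5. The profiles share the difference between genotypes, which the choice of these genes used, and in KO tumours Fgf3, Slc14a1, Adgrg2, Wnt6 and Limch1 were under the level filter, so the order of their KO tumours is not read. Wif1 gave 6.22, 5.92, 5.83, 7.90 and 9.04 in KO tumours 2, 6, 7, 9 and 11, high in mouse 04 as Etv5 was. It was picked for its likeness to Etv5 over these same tumours, so the shared order is no separate result.

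**Figure D5:**
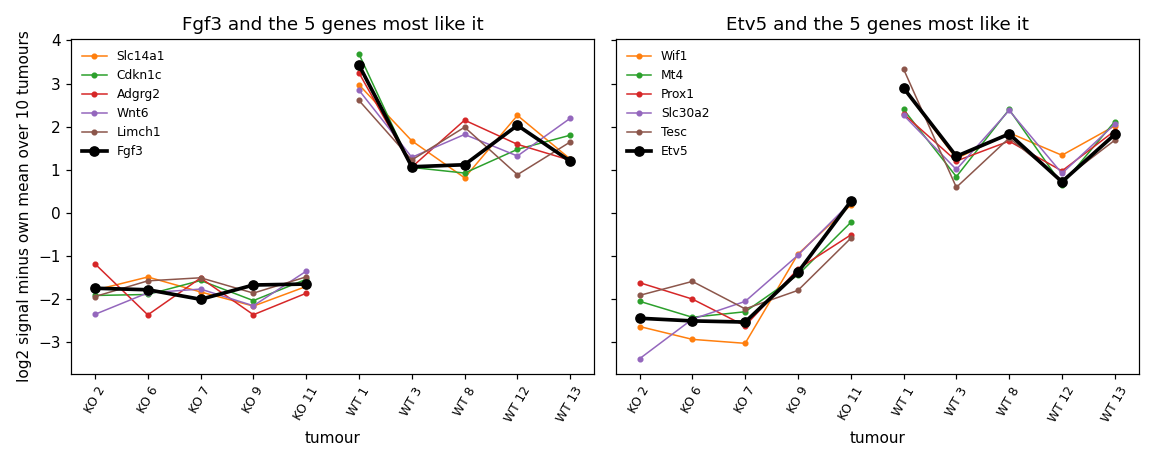
Log2 signal minus each gene's own mean over the 10 tumours (vertical axis) for single tumours, with Fgf3 and the 5 genes most like it on the left and Etv5 with its 5 on the right. Fgf3 is under the level filter in every KO tumour, so its KO points have no order to read. For Etv5, KO tumours 9 and 11 of mouse 04 stand above the other KO tumours.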

How the data were processed

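Per the labels, RNA of laser-dissected tumour tissue was amplified and hybridised to Affymetrix mouse expression arrays. Each array was taken here as 1 tumour. The table deposited by the authors holds log2 values, 1 for each probe set and tumour, computed by RMA per the submitters' processing notes (version not given in the sources used here). The files name no genome build.

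Gene names came from the platform annotation, updated through Entrez identifiers to GRCm38.p6. Of 45101 probe sets 34945 had 1 symbol, 34741 of these were matched, 932 had several and 9160 none, and the last 2 kinds were left out. The brightest probe set on average stood for its gene, and 12250 genes at or above the 40th percentile were tested with limma 3.58.1 (R 4.3.3, statmod 1.5.0). The mouse was a random block (consensus correlation 0.0586), with Benjamini-Hochberg adjustment over all genes and a threshold of 0.05. The fit was tested on simulated data. Precision is limited by the few arrays, and tumours of a mouse are not independent. P-values weigh the KO to WT difference against the spread between these tumours. With 3 KO and 2 WT mice they say little about the spread between animals.

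The members and gene lists were chosen with earlier results of these data known. Named genes were all members, every called gene of a list with up to 3 of the largest differences not called, the 5 genes most like Fgf3 and the 5 most like Etv5, and 4 genes on each side of Fgf3. Markers of endothelium, smooth muscle, nerve and glia had 0 tested genes called, and of 7 myeloid markers 1 (Cd14) was higher in KO. The alternatives were no block, means per mouse, the range of unique numbers as a covariate or alone, other level filters, other probe set choices, median centring, cyclic loess, the 3′ minus 5′ control difference as a covariate, a robust trend, and each tumour or mouse left out. Promoter windows were taken from RefSeq.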

Additional observations from a re-analysis of the deposited data

Results flagged for a closer look

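Within each genotype, the 5 tumours were examined for a single value far from the others (a gap of over 0.71 of the range), in 88 groups of values. By chance about 1 in 20 groups is picked out, and 3 were. Etv5 probe set 1420998_at had KO tumour 11 at 7.03, above the next KO tumour at 6.00. Hs3st1 had KO tumour 7 at 7.34, below the next KO tumour at 7.66. Spry4 had WT tumour 1 at 8.57, above the next WT tumour at 7.97.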

How the results depend on the processing

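No paired analysis was possible because KO and WT tumours share no tumour number or mouse. Genes called over the whole array numbered 359 lower and 509 higher. With means per mouse they were 193 and 195, within the lower number range 18 and 12, without mouse 02 230 and 318, without mouse 04 202 and 265, and without mouse 72 153 and 135. With the level filter at the 60th percentile 219 were lower. Leaving out single tumours gave 186 to 406 lower and 286 to 539 higher, the fewest without KO tumour 6. With cyclic loess 383 were lower and 474 higher.

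Of the pathway genes 3 were lower and 1 higher. The lower count was 5 with no block, 1 with means per mouse, 5 with the range covariate, 0 within either range, and 1 without mouse 02, 04, 72 or 99. The higher count was 2 with the range covariate, with the mean of probe sets and with the 3′ minus 5′ covariate, 0 within the lower range, 3 within the upper range and 0 with the 60th percentile filter. Leaving out single tumours gave 1 to 4 lower, 1 being the count without KO tumour 6 or 7 or WT tumour 1 or 13, and 1 to 2 higher, 2 being the count without KO tumour 2 or WT tumour 3.

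KO minus WT of Fgf3 was −5.14 within the upper range and −2.41 with the mean of its probe sets. Without mouse 72 it was −0.93 for Fgfr1, 1.0 for Fgfr3 and −0.17 for Etv4. Leaving out single tumours gave −3.70 to −3.12 for Fgf3, −3.93 to −3.18 for Etv5, −1.09 to −0.73 for Etv4, −0.55 to −0.32 for Fgfr1, −0.08 to 0.23 for Fgfr2, 0.47 to 0.66 for Fgfr3 and −0.32 to 0.30 for Fgfr4.

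For named pathway genes, 576 recomputed values kept direction and call, 38 lost the call, 13 gained it and 9 changed sign. Fgf7 changed sign to 0.23 with the range covariate, 0.31 and 0.12 within the lower and upper range, 0.041 without WT tumour 12, 0.015 without WT tumour 13 and 0.11 without mouse 04, and without WT tumour 3 it was −0.47. Fgf9 was at 0.031 without mouse 04, and without mouse 72 Sulf1 was at 0.29 and Elk3 at 0.042. Fits within 1 range and without mouse 72 leave 1 tumour in a genotype, assumed to vary like the others. The causes were not tested.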

Other observations

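Among other ETS transcription factors, 0 of 19 tested were called by limma, 7 had an unadjusted p under 0.05, and the median difference was 0.16 on the log2 scale. The share of all genes tested with such an unadjusted p was not counted, so nothing is read from the 7. Spib, a factor of B cells and of M cells in the gut, differed by 0.51 (limma, adjusted p = 0.0974, and 0.039 without KO tumour 2). Its WT mean, 5.69, was under the level filter and its KO mean was 6.19. Spib therefore entered the test only through its KO tumours, and nothing is read from its p-values. Of 8 lymphocyte markers tested 6 were called higher in KO tumours, and most of the 6 entered the test only through those tumours. The part of lymphocytes in the Spib difference was not tested. Spdef, a factor of goblet cells, differed by 0.66 (limma, adjusted p = 0.357), and Elk3, a factor expressed in vessels, by −0.63 (limma, adjusted p = 0.120, and 0.0251 without WT tumour 8, the only tumour of mouse 82). The intracellular FGF homologous factors had 1 of 4 genes above the level filter, Fgf11, with a difference of 0.40 that was not called.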
